A study of Bos taurus with 15 samples.

Results

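The genes of the major histocompatibility complex (MHC) class II pathway were examined in RNA sequencing of bovine subcutaneous adipose tissue. The set was a list of 10 gene names: the class II chains BOLA-DRA, BOLA-DRB3 and BOLA-DQB, the peptide exchange genes BOLA-DMA and BOLA-DMB, their modulators BOLA-DOA and BOLA-DOB, the invariant chain CD74, the class II transactivator CIITA and the class I light chain B2M. Of these, 9 were matched by name among the 13896 genes of every table analysed, and CIITA was not analysed here. Fat was taken from the dewlap of primiparous Prim Holstein cows in 15 libraries, 3 in each of 5 groups. The group at -4 weeks peripartum (wkpp) was sampled before the diets began. The groups with moderate negative energy balance (MNEB) received a high energy (HE) diet from that time on and were sampled at 1 and 16 wkpp, and those with severe negative energy balance (SNEB) received a low energy (LE) diet and were sampled at the same weeks. The cows sequenced were those with the more extreme energy balance at 1 wkpp, and each animal was biopsied at every time point, so libraries of different weeks may share animals, and p-values then measure the spread between these libraries.

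Class II molecules are pairs of an alpha and a beta chain that present peptides of endocytosed proteins to CD4+ T cells. The invariant chain occupies their groove until proteases remove it, and the DM heterodimer, restrained by the DO heterodimer, then exchanges its last fragment for a peptide. Macrophages, dendritic cells and B cells express class II constitutively, and in adipose tissue macrophages are a known source, while B2M is part of class I on nearly all cells.

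The values used were the log2 fold changes and adjusted p-values deposited by the authors, made with DESeq2 in 6 comparisons of 3 libraries with 3, in an exon analysis and a whole gene analysis. A gene was called when exons and whole gene each gave an adjusted p below 0.01 and their signs matched. The reads of each library were recovered from the deposited means and are given as normalized exonic counts, which are reads divided by a size factor computed over the 15 libraries. Library numbers follow the size factor within a group and do not identify an animal. Gene lengths were not used, so levels are compared between groups and not between genes.

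The MNEB libraries stood apart before any result on these genes. They held between 2214862 and 7668762 exonic reads on genes, against 8609734 to 15533352 in the other 9 libraries. Synthetic spike-in RNA took 40.1% to 51.6% of the exonic reads of MNEB 1 wkpp and 24.7% to 32.9% of those of MNEB 16 wkpp, against 2.62% to 6.15% in the other libraries. Every comparison of MNEB with another group therefore sets libraries with few exonic reads, rich in spike-in, against libraries with more. Depth below means these exonic reads on genes. The paper lists similar total reads for all groups, but a lower uniquely mapped share and more multiply mapped reads in the MNEB libraries. The part of all this in the results below was not tested. The 9 adipocyte genes looked up, PLIN1 and FABP4 among them, had reads in all 15 libraries.

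**Figure D1:**
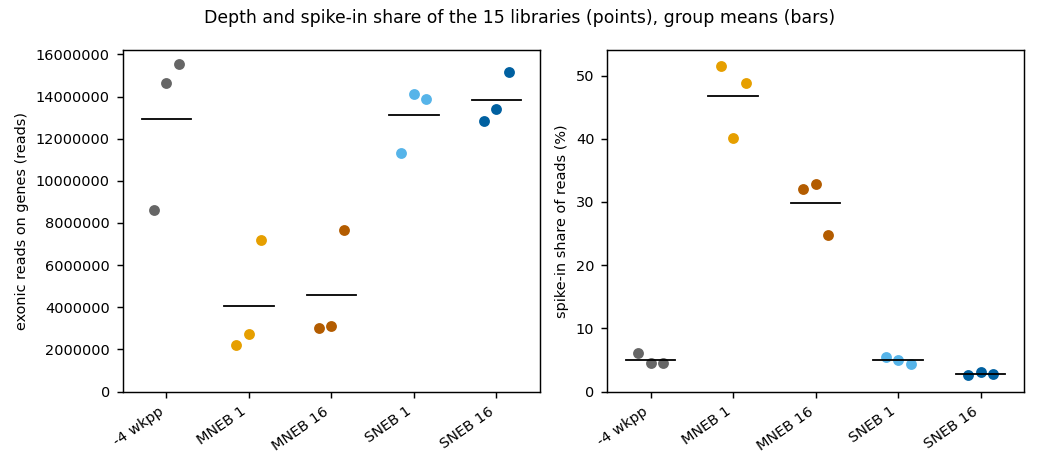
Number of exonic reads on genes (left) and the share of exonic reads on spike-ins in % (right), with a point for each of the 3 libraries of a group and a bar for the group mean. The 6 MNEB libraries have the lowest depths and the highest spike-in shares, with no overlap with the other 9 libraries.

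Most of these genes had higher levels in SNEB than in MNEB fat at 16 wkpp, and at the earlier times few passed the test. In SNEB over MNEB at 16 wkpp, 6 of the 8 genes tested in both analyses were called, all higher in SNEB, against 12.7% of all 9903 genes tested. These calls depended on the test and the libraries: limma, run as a second test on the recovered reads, called 5 of 8 members with all libraries, 1 to 3 when a library was left out, and 0 with MNEB reduced to its deepest library. At -4 wkpp over MNEB 1 wkpp, 2 of 7 were called higher at -4 wkpp, against 11.7% of all genes. In SNEB over MNEB at 1 wkpp, 1 of 7 was called, BOLA-DRA, against 7.43%. The counts of these earlier comparisons are too small to set apart from the shares over all genes. The median log2 fold changes of the 9 genes were 1.84, 1.24 and 0.79 in these comparisons, against 0.03, 0.02 and 0.05 over all genes whose exonic count averaged 10 or more. In bulk tissue, fewer antigen presenting cells and less class II RNA in each cell cannot be told apart.

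In the comparisons without such a difference in depth, no member was called. The counts from the authors' DESeq2 values were 0 of 7 for -4 wkpp over SNEB 1 wkpp (2.33% of all genes), 0 of 4 for MNEB 1 over 16 wkpp (0.529%) and 0 of 6 for SNEB 1 over 16 wkpp (0.114%). At an unadjusted exon p below 0.05 (DESeq2) the counts were 0, 0 and 1 members, the last being CD74, against 12.5%, 10.9% and 6.33% of all genes, and limma on the recovered reads called 0 members in each. The medians of the 9 genes were 0.24, 0.03 and -0.32. The comparisons share libraries (the same 3 at -4 wkpp, and each group at 1 wkpp in several), so their values are not independent of each other.

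**Figure D2:**
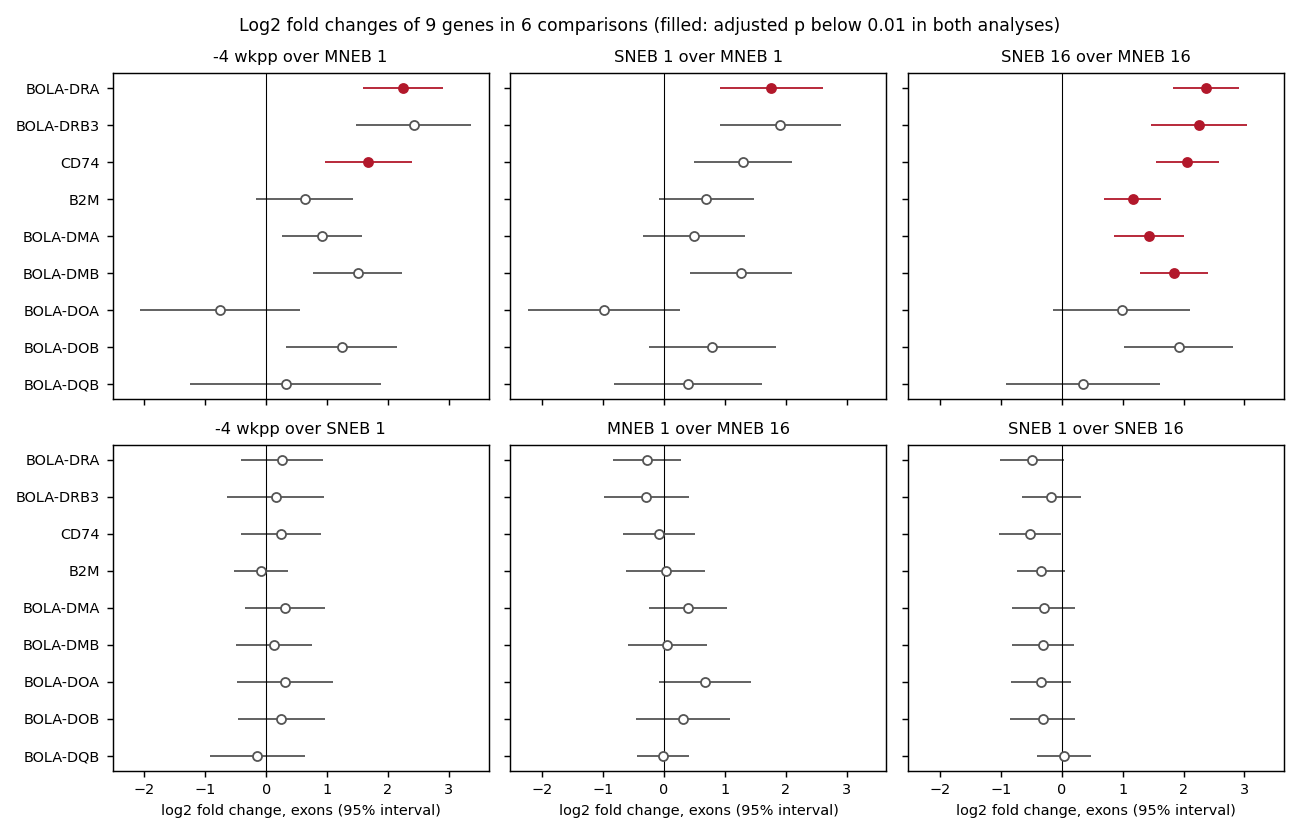
Log2 fold changes on exons (points, first group over second) with 95% intervals (from the standard error) for 9 genes in 6 comparisons, where red filled points are genes called in both analyses. In the top row, which sets a group against MNEB, 9 points are called and all lie to the right of 0, and in the bottom row no point is called.

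The groups were then compared library by library. Among the 8 members with a mean normalized count of at least 10, every -4 wkpp library was above every MNEB 1 wkpp library for 6 (23.1% of 10460 genes), every SNEB library above every MNEB library at 1 wkpp for 3 (19.2%), and at 16 wkpp for 7 (21.9%). The counts were 0 for -4 wkpp over SNEB 1 wkpp (10.2%), 1, BOLA-DMA, for MNEB 1 over 16 wkpp (9.89%) and 0 for SNEB 1 over 16 wkpp (8.09%). No member had all libraries of the first group below those of the second in any of the 6 comparisons.

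**Figure D3:**
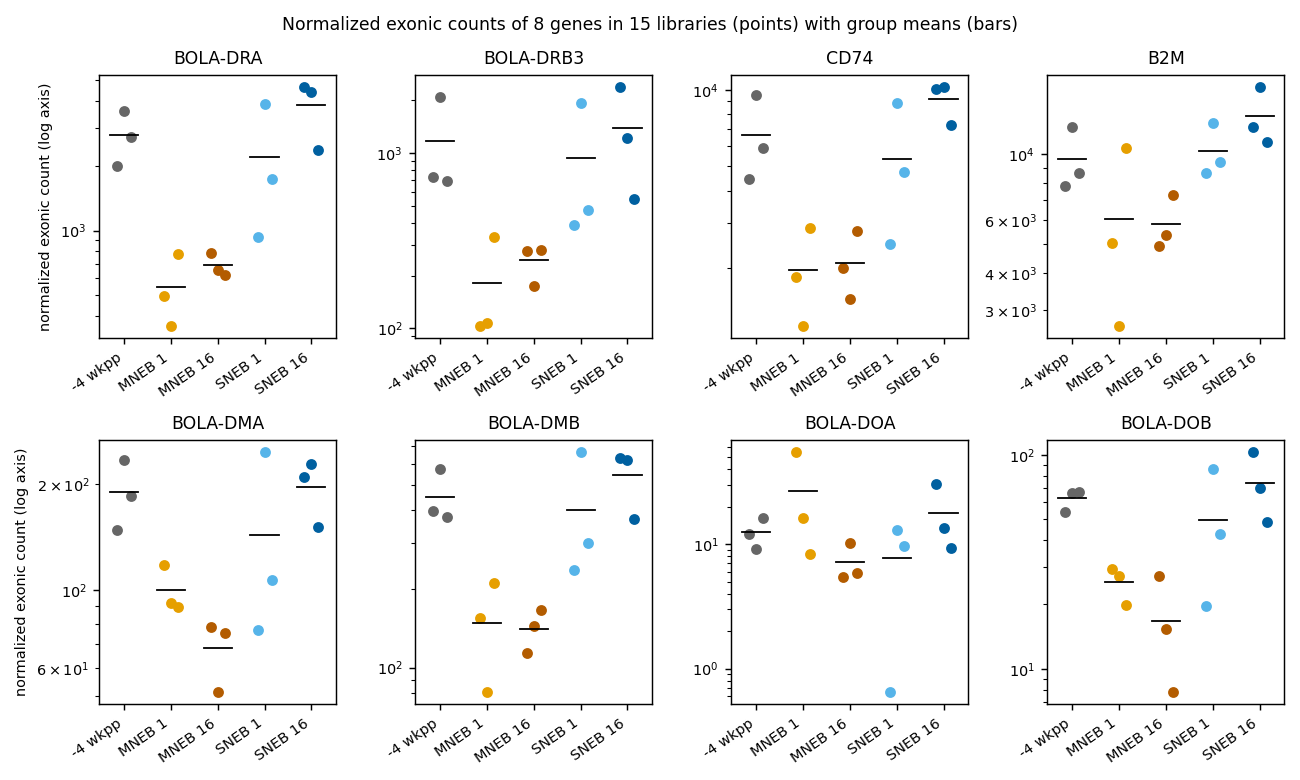
Normalized exonic counts (log axis) of 8 genes in each of the 15 libraries (points) with the group means (bars). For 7 genes, BOLA-DOA excepted, the 3 SNEB libraries at 16 wkpp lie above the 3 MNEB libraries at 16 wkpp.

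BOLA-DRA, the alpha chain of the DR molecule, which pairs with the DRB3 product, was called in more comparisons than any other member. Its normalized exonic counts were 359, 496 and 782 at MNEB 1 wkpp and 624, 653 and 788 at MNEB 16 wkpp. They were 1987, 2731 and 3598 at -4 wkpp, 931, 1733 and 3890 at SNEB 1 wkpp, and 2379, 4391 and 4666 at SNEB 16 wkpp. All 9 libraries outside MNEB were above all 6 MNEB libraries, although the lowest SNEB 1 wkpp library, at 931, came near the highest MNEB library, at 788.

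The log2 fold change of BOLA-DRA was 2.37 ± 0.27 (SE) for SNEB over MNEB at 16 wkpp, with DESeq2 adjusted p = 5.8e-16 on exons and 4.9e-10 on whole genes. For -4 wkpp over MNEB 1 wkpp it was 2.25 ± 0.34, with adjusted p = 8.5e-10 and 3.2e-06 (DESeq2). For SNEB over MNEB at 1 wkpp it was 1.77 ± 0.43, with adjusted p = 0.00054 and 0.0037 (DESeq2). These correspond to 5.16-fold, 4.75-fold and 3.40-fold differences on the shrunken scale of the deposited values. From 1 to 16 wkpp BOLA-DRA did not pass in either diet, with log2 fold changes of -0.28 ± 0.28 in MNEB and -0.49 ± 0.27 in SNEB (1 over 16 wkpp).

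BOLA-DRB3, the beta chain of DR and the most polymorphic class II gene of cattle, lies beside BOLA-DRB2 in the RefSeq annotation (assembly ARS-UCD2.0), a paralog. Whether reads were divided or lost between such copies was not measured, so its counts are uncertain. The normalized exonic counts of BOLA-DRB3 were 103, 108 and 334 at MNEB 1 wkpp and 175, 276 and 282 at MNEB 16 wkpp. They were 696, 734 and 2105 at -4 wkpp, 391, 475 and 1934 at SNEB 1 wkpp, and 551, 1220 and 2402 at SNEB 16 wkpp. The spread within groups was wide: the highest library was 3.03 times the lowest at -4 wkpp, 4.95 times at SNEB 1 wkpp and 4.36 times at SNEB 16 wkpp.

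BOLA-DRB3 was called for SNEB over MNEB at 16 wkpp, with a log2 fold change of 2.25 ± 0.40 and DESeq2 adjusted p = 4.8e-07 on exons and 3.5e-05 on whole genes. It had no exon p-value in 4 of the 6 tables and could not be called there. Of those, -4 wkpp over MNEB 1 wkpp had an exon log2 fold change of 2.42 ± 0.49 and a whole gene value of 2.02 ± 0.48 with adjusted p = 0.00036 (DESeq2), and SNEB over MNEB at 1 wkpp had 1.91 ± 0.51 and 1.72 ± 0.58 with whole gene adjusted p = 0.016 (DESeq2).

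BOLA-DQB, the beta chain of DQ, had between 0 and 13 exonic reads in a library, and 3 libraries, all of MNEB, had none. An exon adjusted p was given for it in 1 table, and a difference was not detectable at this depth. The largest of its exon log2 fold changes was 0.39 ± 0.62, for SNEB over MNEB at 1 wkpp.

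CD74, the invariant chain, which guides new class II dimers to the endosome, was called in a pair of comparisons. Its normalized exonic counts were 1175, 1838 and 2873 at MNEB 1 wkpp and 1504, 1985 and 2775 at MNEB 16 wkpp. They were 4456, 5885 and 9520 at -4 wkpp, 2467, 4736 and 8875 at SNEB 1 wkpp, and 7281, 10108 and 10301 at SNEB 16 wkpp. The lowest SNEB 1 wkpp library, at 2467, was below the highest library of MNEB 1 wkpp, so these groups overlapped.

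CD74 was called for SNEB over MNEB at 16 wkpp (2.06 ± 0.26, DESeq2 adjusted p = 2.5e-13 on exons and 2.9e-10 on whole genes). It was also called for -4 wkpp over MNEB 1 wkpp (1.68 ± 0.37, DESeq2 adjusted p = 4.3e-05 and 0.0022). For SNEB over MNEB at 1 wkpp it was at 1.30 ± 0.41 and missed the threshold, with DESeq2 adjusted p = 0.011 on exons and 0.030 on whole genes. For SNEB 1 over 16 wkpp its value was -0.53 ± 0.26 with DESeq2 unadjusted p = 0.040 and adjusted p = 0.58.

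BOLA-DMA and BOLA-DMB, neighbours in the RefSeq annotation, encode the chains of DM. The normalized exonic counts of BOLA-DMB were 81.1, 154 and 211 at MNEB 1 wkpp and 114, 144 and 165 at MNEB 16 wkpp. They were 376, 397 and 573 at -4 wkpp, 236, 299 and 667 at SNEB 1 wkpp, and 370, 623 and 634 at SNEB 16 wkpp. As for BOLA-DRA, no library outside MNEB was as low as any MNEB library.

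The counts of BOLA-DMA were 89.7, 91.9 and 118 at MNEB 1 wkpp and 51.4, 75.3 and 78.5 at MNEB 16 wkpp, the only member with MNEB 1 wkpp wholly above MNEB 16 wkpp. They were 148, 185 and 234 at -4 wkpp, 77.1, 106 and 247 at SNEB 1 wkpp, and 151, 210 and 228 at SNEB 16 wkpp. At 1 wkpp the SNEB and MNEB libraries overlapped, with 2 SNEB libraries within or below the MNEB range.

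Both DM genes were called for SNEB over MNEB at 16 wkpp. BOLA-DMB was at 1.84 ± 0.28 (DESeq2 adjusted p = 2.9e-09 on exons and 1.7e-05 on whole genes) and BOLA-DMA at 1.43 ± 0.30 (DESeq2 adjusted p = 1.7e-05 and 0.0041). For -4 wkpp over MNEB 1 wkpp, BOLA-DMB was at 1.50 ± 0.37 and passed on exons (adjusted p = 0.00035, DESeq2) but not on whole genes (0.014), and BOLA-DMA was at 0.92 ± 0.34 and passed in neither. At 1 wkpp, SNEB over MNEB, BOLA-DMB was at 1.26 ± 0.43 and BOLA-DMA at 0.49 ± 0.43, and neither passed.

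BOLA-DOB and BOLA-DOA encode the chains of DO, which is known mainly from B cells. BOLA-DOB lies beside TAP2 and BOLA-DYB in the RefSeq annotation. Its normalized exonic counts were 19.8, 27.0 and 29.4 at MNEB 1 wkpp, 7.83, 15.4 and 27.1 at MNEB 16 wkpp, 54.2, 66.0 and 67.3 at -4 wkpp, 19.6, 42.7 and 85.6 at SNEB 1 wkpp, and 48.3, 69.8 and 103 at SNEB 16 wkpp. The MNEB values rest on 6 to 19 reads a library. For SNEB over MNEB at 16 wkpp BOLA-DOB was at 1.92 ± 0.46 and passed on exons (DESeq2 adjusted p = 0.000265) but narrowly not on whole genes (adjusted p = 0.011, DESeq2), and so was not called.

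BOLA-DOA had most of its reads outside exons. It had 1 to 47 exonic reads in a library but 24 to 393 reads over the whole gene, so that between 0.538% and 21.6% of its reads lay on exons, whereas for BOLA-DRA the share was 95.7% to 99.2%. On exons its normalized counts were 8.34, 16.2 and 55.1 at MNEB 1 wkpp and 5.42, 5.87 and 10.3 at MNEB 16 wkpp. They were 9.16, 12.1 and 16.1 at -4 wkpp, 0.653, 9.73 and 12.9 at SNEB 1 wkpp, and 9.35, 13.5 and 30.3 at SNEB 16 wkpp. The libraries of the groups overlapped in each of the 6 comparisons, and the value of 55.1, in the shallowest of the 15 libraries, rests on 15 reads.

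BOLA-DOA was not called in any comparison. Its log2 fold change was -0.76 ± 0.67 for -4 wkpp over MNEB 1 wkpp and -0.99 ± 0.64 for SNEB over MNEB at 1 wkpp, where 8 of 9 members had values above 0, and 0.98 ± 0.57 for SNEB over MNEB at 16 wkpp. On whole genes, MNEB 1 over 16 wkpp gave 1.41 ± 0.49, with DESeq2 unadjusted p = 0.0036 and adjusted p = 0.073, against 0.68 ± 0.39 on exons. BOLA-DOA lies between BRD2 and COL11A2 in the RefSeq annotation.

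**Figure D4:**
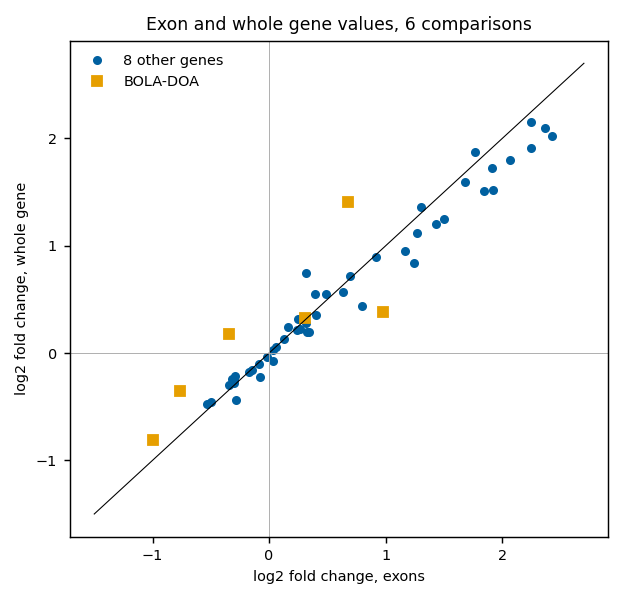
Log2 fold changes from whole gene reads against those from exonic reads for 9 genes in 6 comparisons (54 points), with the line of equal values and BOLA-DOA as orange squares. Of the 54 pairs, 52 have the same sign, and the gap reaches 0.74 at most.

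B2M, the light chain of class I, was called for SNEB over MNEB at 16 wkpp alone, at 1.16 ± 0.24 (DESeq2 adjusted p = 1.6e-05 on exons and 0.000405 on whole genes). B2M had normalized exonic counts of 2648, 5022 and 10448 at MNEB 1 wkpp and 4915, 5347 and 7267 at MNEB 16 wkpp. They were 7832, 8623 and 12301 at -4 wkpp, 8637, 9365 and 12655 at SNEB 1 wkpp, and 11006, 12313 and 16822 at SNEB 16 wkpp. The deepest MNEB 1 wkpp library, at 10448, lay within the -4 wkpp and SNEB 1 wkpp ranges, and neither comparison passed, at 0.63 ± 0.41 for -4 wkpp over MNEB 1 wkpp and 0.70 ± 0.40 for SNEB over MNEB.

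Libraries ranked alike for most members in the SNEB groups but not in the MNEB groups. At SNEB 1 wkpp, library 2 was the highest for 8 of 8 members with a mean of at least 10 and library 1 the lowest for 8 of 8, and at SNEB 16 wkpp library 3 was the lowest for 8 of 8. At -4 wkpp library 2 was the highest for 6, BOLA-DOA and BOLA-DOB being highest in library 3. At MNEB 1 wkpp library 3 was the highest for 5 and the lowest for 3, BOLA-DMA, BOLA-DOA and BOLA-DOB. At MNEB 16 wkpp library 1 was the highest for 3 and the lowest for 3, library 2 the highest for 1 and the lowest for 3, and library 3 the highest for 4 and the lowest for 2.

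The marker genes looked at followed the members in some libraries and not in others. At -4 wkpp library 2, the highest for 6 members, was also the highest for CD68, CD163, CSF1R and LAPTM5, with PTPRC (CD45) highest in library 3, and at MNEB 1 wkpp library 3, the highest for 5, was the highest for these 5 markers. Library 2 of SNEB 1 wkpp was the highest of its group for PTPRC, CD68, CSF1R and LAPTM5, and CD163 was highest in library 3. At SNEB 16 wkpp library 1, the highest for 5 members, was the highest for PTPRC, CD68 and LAPTM5, and library 3, the lowest for the members, was the highest for CD163 and CSF1R. At MNEB 16 wkpp library 2, the highest for 1 member, was the highest for PTPRC, CD68, CD163 and LAPTM5, and CSF1R was highest in library 1. The adipocyte genes PLIN1 and FABP4 were both highest in library 2 at -4 wkpp, in library 3 at MNEB 1 wkpp and in library 1, the lowest for the members, at SNEB 1 wkpp. At 16 wkpp PLIN1 was highest in library 3 and FABP4 in library 2 in both the MNEB and the SNEB group. The part of these markers in the class II values was not tested.

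Whether the log2 fold change of 1 over 16 wkpp differed between the diets was asked with a Wald test on the deposited values. Of 8 members tested, 0 were called, against 0.00874% of all 11448 genes. At an unadjusted exon p below 0.05 there was 1 member, BOLA-DOA, against 629 of 12730 genes. For BOLA-DRA the difference of SNEB minus MNEB was -0.21 with a 95% interval of -0.98 to 0.55, and for CD74 it was -0.45 (-1.24 to 0.33). BOLA-DOA was at -1.02 (-1.93 to -0.12), with DESeq2-based unadjusted p = 0.0261 and adjusted p = 0.955. A difference between the diets in the course from 1 to 16 wkpp was not detected, and these intervals are wide.

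As a second test, limma was run on the recovered exonic reads of all 15 libraries together, a test chosen after the data were seen. It called 4 of 8 members for -4 wkpp over MNEB 1 wkpp, adding BOLA-DMB and BOLA-DRB3, against 27% of 10460 genes. It called 1 of 8, BOLA-DRA, for SNEB over MNEB at 1 wkpp (16.6% of genes) and 5 of 8 at 16 wkpp (11.8%), where BOLA-DOB was called and BOLA-DRB3 and B2M were not. In the other comparisons limma called 0 of 8 for -4 wkpp over SNEB 1 wkpp (0.602% of genes), 0 of 8 for MNEB 1 over 16 wkpp (0%), 0 of 8 for SNEB 1 over 16 wkpp (0.00956%) and 0 of 8 for the difference between diets (0%). At an unadjusted limma p below 0.05 these counts were 0, 0, 2 and 2, against 12.3%, 21%, 5.54% and 7.04% of genes.

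BOLA-DRA was called by limma for -4 wkpp over MNEB 1 wkpp and for SNEB over MNEB at 16 wkpp in 6 of 6 fits that left out a library, but for SNEB over MNEB at 1 wkpp in 2 of 6. In the first pair of comparisons the calls of other members were less stable. At 16 wkpp CD74 was called in 4 of 6, BOLA-DMB in 3 of 6 and BOLA-DOB in 1 of 6, and BOLA-DMA, BOLA-DRB3 and B2M in 0 of 6. BOLA-DMB was called for -4 wkpp over MNEB 1 wkpp in 4 of 6, BOLA-DRB3 in 3 of 6, CD74 in 2 of 6 and B2M in 1 of 6. With each MNEB group reduced to its deepest library, limma called 0 of 8 members for -4 wkpp over MNEB 1 wkpp, SNEB over MNEB at 1 wkpp and at 16 wkpp, against 12.2%, 0.335% and 2.52% of genes. At an unadjusted p below 0.05 the counts were 2, 0 and 6 members, against 40.4%, 28.9% and 29.8% of genes. The limma log2 difference of BOLA-DRA was then 1.78 ± 0.65, 1.24 ± 0.65 and 2.55 ± 0.65, where the lone MNEB library is assumed to vary like the other groups.

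Other genes of the pathway were looked up by list, and each count is to be read against the share of all genes called, which was 11.7% for -4 wkpp over MNEB 1 wkpp, 7.43% for SNEB over MNEB at 1 wkpp and 12.7% at 16 wkpp. Of the other class II chains 6 were in the tables, and for SNEB over MNEB at 16 wkpp 3 of 3 tested were called higher in SNEB: BOLA-DQA5 (1.99 ± 0.32), BOLA-DQA2 (1.89 ± 0.31) and BLA-DQB (1.39 ± 0.31). These DQ genes are paralogs of each other, and their counts are uncertain as for BOLA-DRB3. In the other 5 comparisons the authors' DESeq2 values called 0 of this list, and limma called 2 of 3 at 16 wkpp and 0 elsewhere. At an unadjusted exon p below 0.05 (DESeq2) there were 2 of 6 for -4 wkpp over MNEB 1 wkpp (33.3% of all genes), 1 for SNEB over MNEB at 1 wkpp (31.0%) and 0 for -4 wkpp over SNEB 1 wkpp (12.5%) and for MNEB 1 over 16 wkpp (10.9%). For SNEB 1 over 16 wkpp there were 2 of 6, against 6.33% of all genes, with a median log2 fold change of -0.58 over the 4 genes averaging 10 or more, and limma had 2 of 3 at an unadjusted p below 0.05, against 5.54%.

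Of the genes that transcribe class II, 1 was called from the DESeq2 values in each comparison with MNEB, too few to set apart from the shares of all genes. For -4 wkpp over MNEB 1 wkpp, SNEB over MNEB at 1 wkpp and at 16 wkpp limma called 2, 3 and 0 of 14. The shares of all genes called by limma were 27%, 16.6% and 11.8%. Of 12 tested, 1 was called for SNEB over MNEB at 16 wkpp, SPI1 (PU.1, a myeloid transcription factor), at 1.28 ± 0.33. RFXANK, a subunit of the RFX complex that binds class II promoters, was the 1 gene called of 14 tested for -4 wkpp over MNEB 1 wkpp and of 13 for SNEB over MNEB at 1 wkpp, in the opposite direction. It was lower at -4 wkpp than at MNEB 1 wkpp (-1.63 ± 0.37) and lower in SNEB than in MNEB at 1 wkpp (-1.45 ± 0.36). RFXANK had normalized exonic counts of 392 to 1221 at MNEB 1 wkpp, 205 to 275 at -4 wkpp and 238 to 297 at SNEB 1 wkpp. The median of the list was -0.28, -0.03 and 0.26 for -4 wkpp over MNEB 1 wkpp, SNEB over MNEB at 1 wkpp and at 16 wkpp.

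The proteases and partners of class II loading and turnover had calls in the same comparisons as the class II genes. Of those tested, 7 of 12 were called higher in SNEB than in MNEB at 16 wkpp, 4 of 13 at 1 wkpp, and 4 of 13 higher at -4 wkpp than at MNEB 1 wkpp, with none lower. CTSS (cathepsin S, which degrades the invariant chain) was at 1.80 ± 0.38 for -4 wkpp over MNEB 1 wkpp and 1.57 ± 0.41 for SNEB over MNEB at 1 wkpp. At 16 wkpp CTSS was at 2.27 for SNEB over MNEB but was not called. CST3 (cystatin C, a cathepsin inhibitor) was called in these comparisons, at 3.10 ± 0.26, 2.50 ± 0.33 and 2.17 ± 0.22 in the same order. CTSV and CTSK were also called in all of these comparisons.

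In the class I pathway 3 genes of 17 tested at 16 wkpp were called higher in SNEB, CD1D (1.82 ± 0.35) and ERAP2 (1.29 ± 0.26) among them, and at 1 wkpp 1 of 18, the chaperone CANX (1.19 ± 0.25). CANX was also the 1 gene of 16 called for -4 wkpp over MNEB 1 wkpp (1.21 ± 0.25). These counts are too small to set apart from the shares of all genes. Of the costimulation genes, CD86, a ligand of CD28 on T cells, was higher in SNEB at 1 wkpp (1.93 ± 0.36) and at 16 wkpp (2.63 ± 0.37), and ICAM1, an adhesion molecule, at 16 wkpp (0.95 ± 0.20), which made 1 of 8 and 2 of 8 genes tested.

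The macrophage and general leukocyte markers were called in the same direction as the class II genes at 16 wkpp. Of 9 macrophage genes tested, 8 were called higher in SNEB than in MNEB, with CD163 (3.19 ± 0.24), MSR1 (2.77 ± 0.34) and CD68 (2.57 ± 0.39), and of 6 leukocyte genes 5 were, with LAPTM5 (1.93 ± 0.26) and PTPRC (1.54 ± 0.23). The 15 macrophage genes summed to between 25825 and 33293 normalized counts in SNEB 16 wkpp libraries and between 3245 and 4648 in MNEB 16 wkpp libraries. Their part in the class II differences was not tested.

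At the earlier times 1 macrophage gene was called in each comparison with MNEB. For SNEB over MNEB at 1 wkpp it was CD163 (1.47 ± 0.42), 1 of 10 tested, against 7.43% of all genes. All 14 macrophage genes averaging 10 or more had log2 fold changes above 0 there, with a median of 1.33, and 8 of the 15 in the tables had an unadjusted exon p below 0.05 (DESeq2), against 31.0% of all genes, while limma called 6 of 14, against 16.6%. Their sum was 14637 to 32123 at SNEB 1 wkpp and 3305 to 12268 at MNEB 1 wkpp, without overlap, and its part in the class II values was not tested.

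Of 11 macrophage genes tested, 1 was called for -4 wkpp over MNEB 1 wkpp, LYVE1 (2.84 ± 0.31), which also marks lymphatic vessels, against 11.7% of all genes, and the summed level was 11505 to 19493 at -4 wkpp and 3305 to 12268 at MNEB 1 wkpp, with overlap. For -4 wkpp over SNEB 1 wkpp CD163, a scavenger receptor of macrophages, was lower at -4 wkpp (-1.34 ± 0.18). It was the 1 gene called of 10 tested (DESeq2), against 2.33% of all genes, and no class II member was called. There limma called 0 of 14 macrophage genes and 0 of 8 members, against 0.602% of genes. CD163 was at 1509 to 1883 normalized counts at -4 wkpp and 4046 to 4978 at SNEB 1 wkpp, and the CD74 ranges of these groups overlapped. The difference between these genes was not tested. Of the 14 macrophage genes averaging 10 or more 1 had a value above 0 in that comparison, with a median of -0.44, and 3 of 15 had an unadjusted exon p below 0.05 (DESeq2), against 12.5% of all genes.

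For MNEB 1 over 16 wkpp 13 of 14 macrophage genes had log2 fold changes above 0, with a median of 0.68, against 0.03 for the members. At an unadjusted exon p below 0.05 (DESeq2) there were 7 of 15 macrophage genes and 0 members, against 10.9% of all genes, although 0 macrophage genes were called by the authors' DESeq2 values or by limma. The difference between the lists was not tested.

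Of the B cell genes 8 were in the tables, and CR2, a complement receptor also known from follicular dendritic cells, was the gene called. It was at 2.49 ± 0.37 for -4 wkpp over MNEB 1 wkpp and 3.25 ± 0.38 for SNEB over MNEB at 16 wkpp, each 1 of 4 tested. For SNEB over MNEB at 1 wkpp 0 of 5 were called (DESeq2), with a highest value of 2.61. In these comparisons limma called 1 of 6 each, against 27%, 11.8% and 16.6% of genes. Of the 5 genes averaging 10 or more, 1, 3 and 1 had values above 0, with medians of -0.55, 0.51 and -0.73 in the same order. The defining gene MS4A1 (CD20) was low, at 0 to 55.1 normalized counts, and did not pass. Of the T cell genes 0 were called in the 6 comparisons by the authors' DESeq2 values or by limma, and 5 of 11 had an unadjusted exon p below 0.05 for SNEB over MNEB at 16 wkpp (DESeq2), against 31.0% of all genes. The dendritic cell genes were divided at 16 wkpp, where 3 of 7 tested were called, 2 of them higher in SNEB, SIRPA (1.09 ± 0.30) among them, and ZBTB46, a factor of conventional dendritic cells, lower (-1.56 ± 0.23).

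Genes of other cell types were called both where class II members were and where none was. Of the adipocyte genes 5 of 9 were called higher at -4 wkpp than at MNEB 1 wkpp, led by LEP (leptin, 3.34 ± 0.36), and 2 of 8 were called higher in SNEB than in MNEB at 1 and at 16 wkpp. For SNEB over MNEB 6 of 9 adipocyte genes had values above 0 at 1 wkpp (median 0.66). At 16 wkpp 4 of 9 did (median -0.09, values from -1.51 to 1.50). Of the lymphatic vessel genes 2 of 5 were called higher in SNEB at 16 wkpp, MMRN1 (3.46 ± 0.30) and LYVE1 (2.60 ± 0.31). Of the blood endothelium genes 2 of 7 were lower in SNEB at 16 wkpp, TIE1 (-1.12 ± 0.25) and VWF (-0.62 ± 0.20). For -4 wkpp over MNEB 1 wkpp 2 of 6 lymphatic genes were higher at -4 wkpp, LYVE1 (2.84 ± 0.31) among them, and 2 of 6 endothelium genes were lower, VWF (-1.41 ± 0.30) and TIE1 (-1.04 ± 0.31). In SNEB over MNEB at 1 wkpp MMRN1 (3.24 ± 0.37) was the 1 of 5 lymphatic genes called, higher in SNEB, and TIE1 (-0.99 ± 0.28) the 1 of 6 endothelium genes, lower. For -4 wkpp over SNEB 1 wkpp, where 0 members were called, 6 of 9 adipocyte genes were, 4 of them higher and 2 lower at -4 wkpp, and the lymphatic gene PDPN (-1.40 ± 0.25) and VWF (-0.72 ± 0.17) were lower at -4 wkpp. These calls are from the DESeq2 values, which called 2.33% of all genes. There limma called 2 of 9 adipocyte, 0 of 6 lymphatic and 0 of 7 endothelium genes, against 0.602% of genes. For SNEB 1 over 16 wkpp, also with 0 members called, the adipocyte gene FABP4 was higher at 1 wkpp (0.90 ± 0.16), 1 of 8 tested, against 0.114% of all genes. Their part in the class II differences was not tested either.

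**Figure D5:**
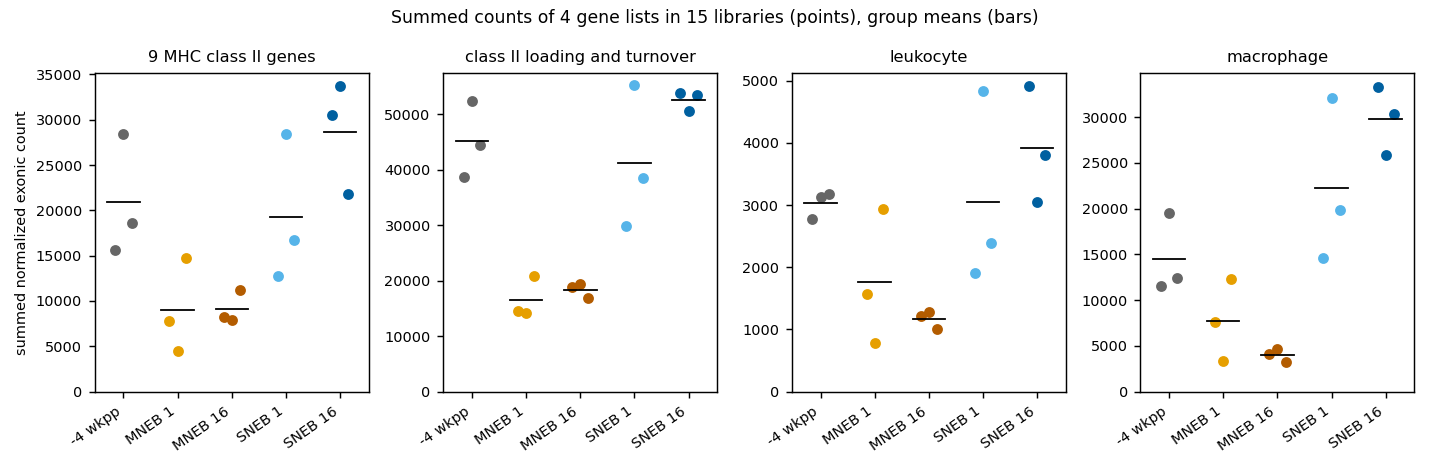
Summed normalized exonic counts of 4 gene lists in each of the 15 libraries (points) with group means (bars). The 9 genes of the set, B2M included, sum to 21796 to 33677 at SNEB 16 wkpp and 7902 to 11207 at MNEB 16 wkpp, and the loading and turnover genes, leukocyte genes and macrophage genes are likewise without overlap between these groups.

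The genes whose values over the 6 comparisons lay nearest to those of CD74 were F13A1, CTSS, SLC9A9, PPT1 and DAB2, by Euclidean distance of exon log2 fold changes among 6133 genes averaging 100 or more exonic counts in every table. F13A1, the A subunit of coagulation factor XIII, was at a distance of 0.33 and CTSS at 0.38, against a median of 3.13 over these genes. BOLA-DRA ranked 28, BOLA-DRB3 58 and B2M 234 by the same measure. The comparisons share libraries, so this likeness is a description.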

How the data were processed

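RNA of subcutaneous adipose tissue was sequenced by the authors in stranded, ribosome-depleted libraries, trimmed with Cutadapt 1.3 (bcl2fastq 2.15.0 before it), aligned with TopHat2 to bosTau8 and counted with htseq-count. The deposited tables hold, for exons and whole genes, the mean normalized count of a comparison's 6 libraries, a log2 fold change (shrunken by DESeq2) with its standard error, the score of the Wald test (not used) and the p-value with its Benjamini-Hochberg adjustment, all made by the authors. These columns of the authors' comparisons were used because the genes are described by them. Columns of other samples numbered 0.

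Each mean count is a sum of whole reads times the worth of 1 read in a library. The reads of the 15 libraries were recovered from the 6 means by lattice reduction, with a solution for 13988 of 13988 entries (100%), a relative deviation of at most 1e-14 and the group of a library taken from the sign of the fold change at genes with a single read. Size factors were then the median ratio to the geometric mean over 15 libraries. limma 3.58.1 in R 4.3.3 (trend, log2 of the normalized count + 1, genes with a mean of at least 10) was run on them after the data were seen. The difference between diets was the Wald test of 2 log2 fold changes, adjusted over all genes. Recovery, the difference test and limma were tested on simulated data, where the reads of 300 of 300 genes were recovered exactly in all 15 libraries.

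Depth was 2214862 to 15533352 exonic reads a library, and intervals cover the spread between 3 libraries, which may share animals over time. The members, the lists and the rules for the genes named (every member, of each list at most 4 called genes with the largest log2 fold changes at a mean of 100 or more exonic counts, and the 5 genes nearest to CD74; MS4A1, CSF1R and the levels of PTPRC, PLIN1 and FABP4 were looked at beyond it) were chosen with earlier results of these data known. RefSeq (ARS-UCD2.0) gave names and neighbours of genes only, and no sequence was used here. Scripts ran under Python 3.11.15 with pandas 2.3.3, scipy 1.17.1, numpy 2.4.6 and, for plots, matplotlib 3.10.9. An item withheld for evaluation is not reported here.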

Additional observations from a re-analysis of the deposited data

How the results depend on the processing

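Of the counts of members called from the deposited values, an adjusted p below 0.05 moved SNEB over MNEB at 1 wkpp from 1 to 2, by CD74, and exons alone or whole genes alone kept every count within 1.5 times. The whole gene analysis put the median log2 fold change for SNEB over MNEB at 16 wkpp at 1.51 in place of 1.84. Re-centring, leaving out B2M or the gene of highest mean count, a mean of at least 10 and, where available, the way through the other tables moved no median by as much as the median standard error of the members. limma on the recovered reads called 4 members instead of 2 for -4 wkpp over MNEB 1 wkpp, and its other counts stayed within 1.5 times. Leaving out each library in turn, limma called 1 to 5 members for -4 wkpp over MNEB 1 wkpp, 0 to 4 for SNEB over MNEB at 1 wkpp and 1 to 3 at 16 wkpp, where all libraries gave 4, 1 and 5, and 0 to 0 in the other comparisons. For -4 wkpp over MNEB 1 wkpp the count was 1 without library 2 of either group and 2 without library 1 of MNEB 1 wkpp. For SNEB over MNEB at 1 wkpp it was 0 without library 1 or 2 of MNEB or 2 or 3 of SNEB, 4 without library 3 of MNEB and 3 without library 1 of SNEB. At 16 wkpp it was 1 without library 1 of SNEB, 2 without library 2 of either group and 3 without any other. With MNEB groups by their deepest library alone these 3 counts were 0. The cause was not tested. Depth limits BOLA-DQB, BOLA-DOA and BOLA-DOB, whose MNEB libraries hold at most 19 exonic reads. No paired analysis was possible because the deposited comparison values and the recovered libraries carry no replicate number or animal.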
